A study of Homo sapiens with 4 samples.

Results

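The 10 genes described here are marker genes of stem cells and of pluripotency: CD44, PROM1, LGR5, SOX2, POU5F1, NANOG, KLF4, MYC, LIN28B and BMI1. They were taken by name from tables of 43622 genes, and all 10 were found. The tables come from 4 mRNA sequencing libraries of the human lung adenocarcinoma lines A549 and H1993 (NCI-H1993). Each line was grown adherent, attached to the dish, and as spheroids, cell clusters that the study treats as cancer stem cell culture. Every combination of line and culture was sequenced once, and none of these labels names an inhibitor, an shRNA, a culture time or a replicate. No difference between a pair of libraries therefore has a replicate check. Of the 10 genes, 7 passed the filter on low read counts that 15273 genes of the tables passed, and PROM1, LGR5 and NANOG did not.

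These genes mark stem cells in different ways. CD44 and PROM1 (CD133) are surface proteins by which cells with tumour-forming capacity are often sorted, and LGR5 is a receptor that enhances Wnt signalling in intestinal stem cells. SOX2, POU5F1 (OCT4) and NANOG are the transcription factors at the core of the pluripotency network, and KLF4 and MYC complete the set that reprograms somatic cells together with SOX2 and POU5F1. LIN28B is an RNA-binding protein that blocks the maturation of let-7 microRNAs, and BMI1 is a Polycomb protein that keeps stem cells dividing by silencing the CDKN2A locus.

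The libraries held between 15331121 and 17681746 exonic reads, so 3 reads correspond to between 0.173 and 0.196 CPM (counts scaled by library size and composition). The library labelled H1993 adherent resembled the adherent A549 library more than its own spheroid partner, with Pearson correlations of log2 levels of 0.947 and 0.846 across 15273 genes, which are not independent replicates. For scale, the A549 pair had 0.899 and the spheroid libraries 0.810. CDKN2A had 0 reads in both A549 libraries, 75 for the label H1993 adherent and 308 for H1993 spheroids. Every value of the H1993 pair is that of the libraries as labelled. The A549 pair and the comparison of the spheroid libraries compare no reads of the doubtful one, labelled H1993 adherent. That library did enter the filter and the scaling, which were set over all 4 libraries. Of 18 lung epithelial markers, 10 had over 3 reads in each library, with KRT8 between 32265 and 82350 reads. The surfactant genes SFTPA1 and SFTPA2, SLC34A2 and SCGB1A1 were at 0 in all 4 libraries, and the lung factor NKX2-1 was at 0 in both A549 libraries. The summed levels of 9 endothelial, 10 fibroblast and 12 blood cell markers ranged from 3.46 to 8.26, from 26.0 to 60.2 and from 22.9 to 96.2 CPM. Division genes differed far more: 8 markers summed to 1939 CPM in adherent A549 and 155 in spheroid A549 cells, against 1669 in the library labelled H1993 adherent and 801 with H1993 spheroids. In bulk RNA, fewer cells of a type and less RNA per cell cannot be told apart.

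**Figure D1:**
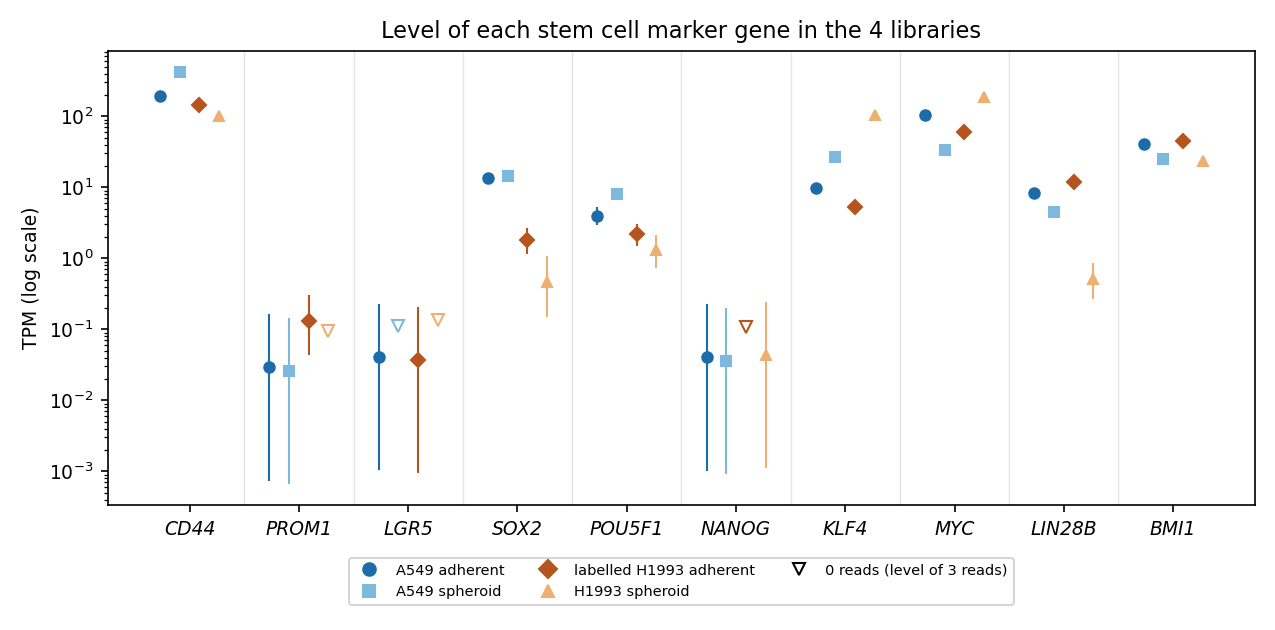
Level of the 10 genes in the 4 libraries, in TPM on a log axis, with 95% Poisson intervals of the read count, and open triangles at the level of 3 reads where a library had 0 reads. CD44, MYC and BMI1 stood above 20 TPM in every library, while PROM1, LGR5 and NANOG had at most 5 reads in any of them.

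Levels between genes are given in TPM, a share of all transcripts that takes account of exon length, with 95% Poisson intervals of the read count in brackets. Differences between libraries are given as log2 folds of total exon reads with 95% counting intervals, which cover counting error only. A gene that passed the filter was counted as higher or lower where the fold was at least 2 and this interval excluded no change. By that rule 3 of the 10 genes were higher in A549 spheroids (CD44, KLF4 and POU5F1) and 1 was lower (MYC), against 12.4% and 10.3% of all 15273 genes. In the H1993 pair 2 were higher (KLF4 and MYC) and 3 lower (SOX2, BMI1 and LIN28B), against 17% and 18% of these kept genes. KLF4 was thus the one gene of the 10 counted as higher in both pairs, and none was counted as lower in both. The shares of all kept genes higher or lower in both pairs are not given here, so neither count can be called unusual. The 3 genes that did not pass the filter count as neither, while the percentages are of the 15273 kept genes only. With so few genes these shares describe the 10 genes and were not tested against the background. The lists of related genes below were not tested against it either. The median log2 fold of the 7 genes was 0.17 in the A549 pair and -0.75 in the H1993 pair. Over all kept genes it was -0.0039 and 0.00.

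**Figure D2:**
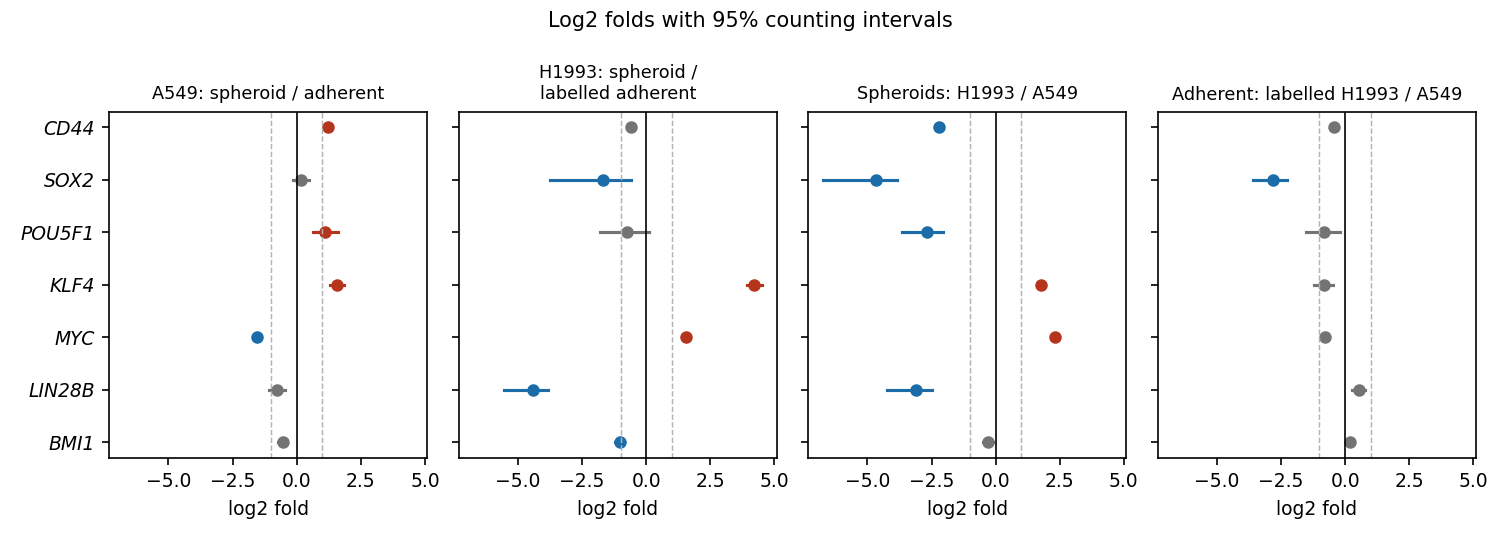
Log2 folds of the 7 genes that passed the filter in 4 comparisons, with bars for the 95% counting interval, dashed lines at 2-fold, red for genes counted as higher, blue for lower and grey for neither. MYC lies at -1.56 in the A549 pair and at 1.57 in the H1993 pair, while KLF4 lies to the right in both.

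CD44, the receptor for the matrix polysaccharide hyaluronan (ENSG00000026508, chromosome 11, 35138870 to 35232402 on hg38), was the most abundant of the 10 genes in every library but that of H1993 spheroids. It stood at 195 TPM (191 to 199) in adherent A549 and 423 (417 to 429) in spheroid A549 cells, against 144 (141 to 147) in the library labelled H1993 adherent and 101 (98.4 to 104) with H1993 spheroids. None of these intervals overlap, and A549 spheroids were the highest. By TPM it ranked 249 among all genes in A549 spheroids and 1586 in H1993 spheroids. From 9003 reads in A549 adherent cells and 22074 in A549 spheroids, the log2 fold was 1.23 (1.20 to 1.27). The H1993 pair went the other way at -0.58 (-0.63 to -0.53), from 7389 and 4351 reads, which is under 2-fold.

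Reads across exon-exon junctions made up 22.7% (exact 95% interval 21.8 to 23.6) of CD44 exon reads in adherent A549 cells, 23.2% (22.7 to 23.8) in their spheroids and 23.3% (22.4 to 24.3) for the library labelled H1993 adherent. In H1993 spheroids the share was 27.6% (26.2 to 28.9), above the other three beyond counting error. Splicing of the variable CD44 exons is known to depend on the epithelial splicing factors ESRP1 and ESRP2. ESRP1 had 47 reads in adherent A549 and 30 in spheroid A549 cells, against 177 in the library labelled H1993 adherent and 3908 with H1993 spheroids. ESRP2 had 2, 3, 37 and 1245 reads in the same order. Both were thus far higher in the library with the higher junction share, and their part in it was not tested. CD44 isoforms themselves were not analysed here.

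Genes that make, break or bind hyaluronan, or that bind, anchor, cut or splice CD44, went both ways. ESRP1 and ESRP2 are in this list and are counted here again. In the A549 pair 4 of 19 measured genes were higher and 3 lower (median -0.10), against 12.4% and 10.3% of kept genes. In the H1993 pair 6 of 20 were higher and 7 lower (median -0.37), against 17% and 18%. CEMIP, which degrades hyaluronan, was at 5.33 in the A549 pair (93 and 3983 reads) and 2.72 in the H1993 pair (168 and 983). HYAL1, a hyaluronidase, was higher in both, with 18 and 165 reads in the A549 pair and a fold of 1.83 (1.26 to 2.60) in the H1993 pair. HAS2, a hyaluronan synthase, was at 1.29 (0.96 to 1.67) in the A549 pair and at -3.67 (-3.91 to -3.47) in the H1993 pair. Its 2618 reads in the library labelled H1993 adherent were far above the 95, 246 and 179 of the other three. HMMR, a hyaluronan receptor that is also a mitotic spindle protein, was at -4.46 and -1.06. SPP1 (osteopontin), another CD44 ligand, was at 1.65 and -0.60.

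PROM1, a cholesterol-binding protein of membrane protrusions (ENSG00000007062, chromosome 4, 15963076 to 16084378), was close to absent from the reads. It had 1 read in each A549 library, 5 in the library labelled H1993 adherent, with 0 in H1993 spheroids, where the floor taken for a count of 0, 3 reads, is 0.0946 TPM. The 5 reads correspond to 0.132 TPM (0.0428 to 0.308), an interval that holds this floor, so no difference was detectable at this depth. Its paralog PROM2 had 2 and 10 reads in A549 adherent cells and spheroids, 36 in the library labelled H1993 adherent, with 976 in H1993 spheroids. The PROM2 log2 fold of the H1993 pair was 4.86 (4.47 to 5.47), so CD133's paralog was well measured in a library with no PROM1 read.

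LGR5 (ENSG00000139292, chromosome 12, 71439770 to 71586310) had 1 read in each adherent library and 0 in each spheroid library, all at or under 3 reads, so no fold is given. In the spheroid libraries the floor of 3 reads is 0.110 TPM in A549 and 0.134 TPM in H1993. LGR4, its broadly expressed paralog, was measured throughout with 3144, 5535, 5313 and 2080 reads in A549 adherent, A549 spheroid, labelled H1993 adherent and H1993 spheroid libraries. Its log2 fold was 0.75 (0.69 to 0.82) in the A549 pair and -1.17 (-1.24 to -1.10) in the H1993 pair.

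Other genes of the Wnt and LGR5 module were spread to both sides. Of 17 measured in the A549 pair 4 were higher and 1 lower (median 0.25), beside 12.4% and 10.3% of kept genes. Of 19 in the H1993 pair 3 were higher and 8 lower, beside 17% and 18% of kept genes. The H1993 median was -0.30, or -1.17 over members with at least 100 reads. AXIN2, a direct target of Wnt signalling, was lower in both, at -1.22 (-1.59 to -0.90) and -1.49 (-1.90 to -1.14). NOTUM, another gene of this module, went the other way in the H1993 pair, from 7 reads (0.40 CPM) to 124 (8.11 CPM). It had 7 and 13 reads in the A549 pair. Whether Wnt signalling itself differed between cultures was not tested. RNF43, a ligase that removes Wnt receptors, was at 1.17 in the A549 pair and -1.64 in the H1993 pair. TNFRSF19 (TROY), a marker of LGR5 stem cells, was at 3.65 (3.22 to 4.28) in the A549 pair from 33 and 457 reads. ASCL2, the transcription factor of intestinal stem cells, had 0 reads in both A549 libraries, 6 in the library labelled H1993 adherent, with 121 in H1993 spheroids, and it did not pass the filter.

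SOX2, a single-exon gene of 2513 bases (ENSG00000181449, chromosome 3, 181711924 to 181714436), had reads in all libraries, but 0 of them were counted as unique. Its total exon reads were 158 in adherent A549 and 186 in spheroid A549 cells, against 23 in the library labelled H1993 adherent and 5 with H1993 spheroids. In TPM these are 13.7 (11.6 to 16.0), 14.3 (12.3 to 16.5), 1.79 (1.14 to 2.69) and 0.466 (0.151 to 1.09). The A549 libraries were the high ones, and their intervals overlap each other but not those of the H1993 libraries. The log2 fold was 0.17 (-0.14 to 0.49) in the A549 pair, -1.69 (-3.77 to -0.59) in the H1993 pair, -4.66 (-6.74 to -3.85) for H1993 over A549 spheroids and -2.80 (-3.61 to -2.27) for the library labelled H1993 adherent over A549 adherent cells.

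The whole SOX2 gene lies within the span of SOX2-OT, a long noncoding gene on the same strand. SOX2-OT itself had 0, 2, 0 and 0 exon reads and between 6 and 19 gene reads per library, so the 158 and 186 SOX2 reads of the A549 libraries were not counted there. Genes with at least 10 exon reads numbered between 14723 and 15125 per library, and between 442 and 451 of them had no unique read. With unique reads alone SOX2 has no measured level, and each SOX2 fold rests on reads that the tables do not count as unique.

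**Figure D3:**
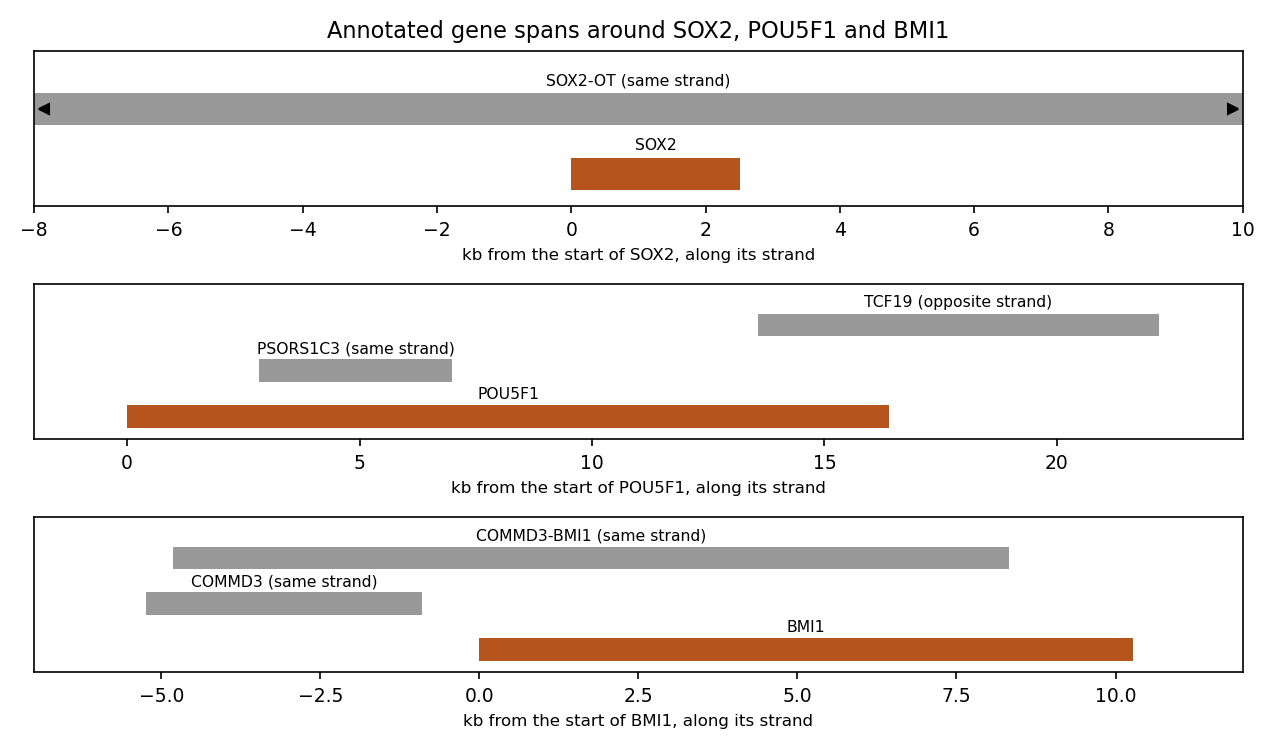
Annotated spans of SOX2, POU5F1 and BMI1 (orange) and of neighbouring genes (grey), in kb from the start of each gene along its strand, with arrowheads where SOX2-OT runs on. SOX2-OT covers all 2513 bases of SOX2, and COMMD3-BMI1 covers 8332 of the 10274 bases of BMI1.

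Among 18 other SOX genes, 4 of 10 measured were higher and 0 lower in the A549 pair, against 12.4% and 10.3% of kept genes. Their median was 0.71, or 1.68 over members with at least 100 reads. In the H1993 pair 5 of 10 were higher and 3 lower (median 1.79), against 17% and 18% of kept genes. SOX9, a factor of lung progenitor cells, was at 1.96 (1.83 to 2.11) from 502 and 2053 reads in A549 and at 2.52 (2.36 to 2.69) from 363 and 1836 reads in the H1993 pair. SOX8, of the same subfamily, was at 4.60 and 3.91. SOX4 was at 0.53 in the A549 pair and -2.35 in the H1993 pair. SOX9 was thus better measured than SOX2 in every library and higher in both spheroid cultures.

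POU5F1, which encodes OCT4 (ENSG00000204531, chromosome 6, 31164337 to 31180731 on the minus strand), was read mostly outside its exons. Intronic reads made up 83.9% of its gene reads in adherent A549 and 81.7% in spheroid A549 cells, against 87.2% in the library labelled H1993 adherent and 84.2% with H1993 spheroids. The median gene with at least 10 reads had between 10.6% and 14.1%. Exon reads numbered 53, 121, 32 and 16 in the same order, or 3.98 TPM (2.98 to 5.20), 8.05 (6.68 to 9.62), 2.17 (1.48 to 3.06) and 1.29 (0.740 to 2.10). A549 spheroids stood above the other libraries, and the intervals of the H1993 libraries overlap. Intronic reads followed the same order, with 277, 539, 218 and 85.

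The A549 fold of POU5F1 was 1.10 (0.65 to 1.62), just past 2-fold. It fell under 2-fold with scaling by library size alone (0.99) and with unique reads (0.996). The H1993 pair was at -0.75 (-1.78 to 0.09), and H1993 spheroids were at -2.67 (-3.65 to -2.04) against A549 spheroids. Between 81.0% and 87.5% of its exon reads were unique, and between 9 and 23 junction reads were seen in all libraries but H1993 spheroids, which had 3. PSORS1C3, a noncoding gene within the POU5F1 span and on its strand, had 10, 24, 5 and 3 exon reads, of which 0, 1, 0 and 0 were unique. TCF19 overlaps 2823 of the 16395 bases of the POU5F1 span. It had 350 and 15 exon reads in A549 adherent cells and spheroids. The library labelled H1993 adherent had 396 and H1993 spheroids 491. Whether overlapping genes contribute to the POU5F1 reads was not tested. The retrogene POU5F1B had at most 1 read.

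NANOG (ENSG00000111704, chromosome 12, 7787794 to 7799141) had 1 read in 3 libraries and 0 in the library labelled H1993 adherent, where the floor of 3 reads is 0.109 TPM. The NANOGP8 retrogene had at most 3 reads. LIN28A, the pluripotency paralog of LIN28B, had 0 reads in all 4 libraries. Of 28 further genes of the pluripotency network, 10 were measured in the A549 pair, with 2 higher and 4 lower (median -0.55). In the H1993 pair 11 were measured, with 3 higher and 5 lower. The median of -1.43 there turned to 0.57 over members with at least 100 reads. Among kept genes 12.4% were higher and 10.3% lower in the A549 pair, and 17% and 18% in the H1993 pair. DNMT3B, a DNA methyltransferase of early embryos, was lower in both, at -3.55 (-4.12 to -3.15) and -2.55 (-2.86 to -2.28). TBX3 was at -1.47 and -1.48, and NR5A2, an orphan nuclear receptor, at -1.26 and -3.43. TERT, the catalytic subunit of telomerase, had 97 reads in A549 adherent cells and 1 in A549 spheroids, a fold of -5.09 (-11.98 to -4.15), and was at 1.33 (0.89 to 1.85) in the H1993 pair. SALL4, a partner of POU5F1, was at -0.79 and -2.55. A list of genes known to aid reprogramming shares members with this network, among them TBX3, NR5A2 and SALL4, so it is not independent of it. In the A549 pair 0 of 9 measured were higher and 4 lower (median -0.82). In the H1993 pair 1 of 10 was higher and 4 lower (median -0.93, or -0.37 over members with at least 100 reads).

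KLF4, a zinc finger factor of reprogramming and of epithelial differentiation (ENSG00000136826, chromosome 9, 107484852 to 107490482 on the minus strand), was higher in spheroids of both lines. It had 162 reads in adherent A549 and 504 in spheroid A549 cells, against 98 in the library labelled H1993 adherent and 1604 with H1993 spheroids. These are 9.62 TPM (8.20 to 11.2), 26.5 (24.3 to 28.96), 5.25 (4.26 to 6.40) and 103 (97.8 to 108). Both spheroid libraries lay above both adherent ones, and no intervals overlap. The log2 fold was 1.56 (1.32 to 1.84) in the A549 pair and 4.19 (3.92 to 4.53) in the H1993 pair. Between lines it was 1.78 (1.64 to 1.94) for the spheroids and -0.84 (-1.23 to -0.48) for the adherent libraries. All its exon reads were unique.

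The promoters of KLF4, LIN28B and BMI1 are shown because they are the 3 with a motif match among the 7 genes that could be searched. This choice was made after the matches were seen. Each window runs from 250 bases before to 50 bases after a RefSeq start (GRCh38.p14) and is written along the gene's strand. Capitals mark CACGTG, the E-box that MYC and MAX bind, and GGAATG or its reverse complement CATTCC, the core of the TEAD motif that the study's title refers to. The windows are chr9:107489720-107490019 on the minus strand, chr6:104956857-104957156 and chr10:22320849-22321148 on the plus strand.
KLF4: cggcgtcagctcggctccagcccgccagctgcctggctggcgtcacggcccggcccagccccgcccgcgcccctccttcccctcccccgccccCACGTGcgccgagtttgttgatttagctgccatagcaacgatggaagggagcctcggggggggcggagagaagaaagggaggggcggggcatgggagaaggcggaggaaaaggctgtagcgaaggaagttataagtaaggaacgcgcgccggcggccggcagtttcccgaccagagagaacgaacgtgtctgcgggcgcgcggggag
LIN28B: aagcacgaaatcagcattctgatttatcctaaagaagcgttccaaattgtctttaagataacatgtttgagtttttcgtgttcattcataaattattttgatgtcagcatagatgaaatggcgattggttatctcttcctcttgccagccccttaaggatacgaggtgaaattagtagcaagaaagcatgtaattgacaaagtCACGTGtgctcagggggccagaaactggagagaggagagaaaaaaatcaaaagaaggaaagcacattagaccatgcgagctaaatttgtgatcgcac
BMI1: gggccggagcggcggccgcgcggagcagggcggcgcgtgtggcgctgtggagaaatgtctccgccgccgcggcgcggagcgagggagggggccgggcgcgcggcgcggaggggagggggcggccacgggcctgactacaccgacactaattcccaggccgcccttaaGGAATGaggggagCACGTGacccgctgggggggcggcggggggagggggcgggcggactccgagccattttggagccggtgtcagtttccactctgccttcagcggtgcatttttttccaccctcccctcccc

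KLF4 holds 1 E-box 157 bases before its start, LIN28B 1 E-box 47 bases before the start of the second of its 2 entries, and BMI1 a TEAD match 83 bases and an E-box 70 bases before its start. Of the 10 genes, 7 were found in the RefSeq promoter table, with 12 entries in all. MYC, POU5F1 and LGR5 had no entry there, so their promoters were not searched. Of the 12 entries 3 held an E-box and 1 a TEAD match. Among all 35116 promoter entries of that length, 7.26% held the E-box and 14.03% the TEAD motif on either strand. The matches are descriptions of these windows only.

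Of the other KLF and SP genes, 1 of 14 measured was higher and 1 lower in the A549 pair (median 0.04). In the H1993 pair 2 of 13 were higher and 1 lower (median 0.19). Among kept genes 12.4% were higher and 10.3% lower in the A549 pair, and 17% and 18% in the H1993 pair. KLF5, which can replace KLF4 in reprogramming, was at 1.13 (1.04 to 1.22) in the A549 pair and 0.57 (0.46 to 0.68) in the H1993 pair. KLF9 was the one lower in both, at -1.35 and -3.03. Neither list median moved as far as KLF4 itself.

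MYC, the growth-promoting transcription factor (ENSG00000136997), differed between cultures in opposite directions in the 2 lines. It had 1461 reads in adherent A549 and 517 in spheroid A549 cells, against 919 in the library labelled H1993 adherent and 2404 with H1993 spheroids, all unique. These are 106 TPM (100.4 to 111), 33.2 (30.4 to 36.2), 60.1 (56.2 to 64.1) and 188 (180.3 to 195). The order was therefore H1993 spheroids, A549 adherent cells, the library labelled H1993 adherent and A549 spheroids, and no neighbours overlap. The log2 fold was -1.56 (-1.71 to -1.42) in the A549 pair and 1.57 (1.46 to 1.68) in the H1993 pair. H1993 spheroids were at 2.33 (2.20 to 2.47) against A549 spheroids, a comparison without reads of the doubtful library.

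Intronic reads of MYC made up 14.7% (13.1 to 16.5) of its gene reads in A549 adherent cells and 4.96% (3.30 to 7.14) in A549 spheroids, or 252 and 27 reads. In the H1993 pair the shares were 12.5% (10.5 to 14.6) and 8.66% (7.62 to 9.80). The share was thus lower in spheroids of both lines, whichever way the exon reads went. For the median gene with at least 10 reads it was lower in spheroids too. That median went from 13.0% to 10.6% in the A549 pair and from 14.1% to 13.4% in the H1993 pair. PVT1, the long noncoding gene next to MYC, had 486, 222, 374 and 770 exon reads in A549 adherent, A549 spheroid, labelled H1993 adherent and H1993 spheroid libraries. Its folds of -1.19 (-1.43 to -0.96) and 1.22 (1.05 to 1.41) had the same signs as those of MYC.

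A list of 22 genes that MYC is known to activate held genes of ribosome biogenesis and ODC1, which is not one of them. In the A549 pair 16 were neither higher nor lower by the 2-fold rule, 5 were lower and 1, ODC1, was higher. Of the 22, 1 lay above 0, and the median was -0.73. In the H1993 pair 2 were higher, 1 was lower and 15 of 22 lay above 0, with a median of 0.26. Among kept genes 12.4% were higher and 10.3% lower in the A549 pair, and 17% and 18% in the H1993 pair. NCL (nucleolin) was at -1.15 and -0.03, BOP1 at -1.60 and 0.67, PPAN at -0.69 and 1.33, and NOP56 at -1.46 and -1.14. ODC1, the polyamine enzyme and the one gene above 0 in A549, was at 1.80 and 1.02. The 8 division markers lay at a median of -4.77 in the A549 pair and -0.54 in the H1993 pair, and their part in these values was not tested.

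Partners and rivals of MYC for MAX, in a list that also holds the mitotic kinase AURKA, were mixed. AURKA was at -3.54 (-3.81 to -3.31) in the A549 pair, where it is counted as lower, and at 0.03 in the H1993 pair. Of 13 measured genes, 3 were higher and 2 lower in the A549 pair (median 0.24), against 12.4% and 10.3% of kept genes. In the H1993 pair 2 were higher and 1 lower (median 0.36), against 17% and 18%. MXD1, which represses MYC targets in differentiating cells, was higher in both, at 1.98 (1.65 to 2.37) and 2.60 (2.29 to 2.97), and MXD3, which peaks in S phase, lower in both at -2.35 and -1.30. MXI1 was at 1.74 and 0.13, and MAX at 0.52 and -0.39. MYCN had at most 1 read, and MYCL between 34 and 45.

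LIN28B (ENSG00000187772, chromosome 6, 104936616 to 105083332) was lowest in H1993 spheroids. It had 227 reads in adherent A549 and 138 in spheroid A549 cells, against 359 in the library labelled H1993 adherent and 13 with H1993 spheroids, all unique. These are 8.22 TPM (7.18 to 9.36), 4.43 (3.72 to 5.23), 11.7 (10.5 to 13.0) and 0.508 (0.270 to 0.868). No intervals overlap, and the library labelled H1993 adherent was the highest. The log2 fold was -0.77 (-1.10 to -0.47) in the A549 pair, under 2-fold, and -4.42 (-5.53 to -3.81) in the H1993 pair. Against A549 spheroids, H1993 spheroids were at -3.12 (-4.24 to -2.47).

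LIN28B acts on the let-7 family, whose mature forms share the seed at bases 2 to 8, in capitals below for 3 of the 11 RefSeq microRNAs that carry it. The pairing stretch CTACCTC, in capitals in the target sites that follow, was searched in the 3' UTR of 1 GENCODE 29 transcript per gene. The sites belong to LIN28B (chr6:105078805-105078834, plus strand) and to the let-7 targets HMGA2 (chr12:65963293-65963320) and IGF2BP1 (chr17:49053691-49053720), both also on the plus strand. They are shown because these 2 targets differed in opposite directions.
hsa-let-7a-5p: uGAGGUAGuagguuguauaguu
hsa-let-7g-5p: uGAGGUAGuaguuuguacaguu
hsa-miR-98-5p: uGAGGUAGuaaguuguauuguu
LIN28B site: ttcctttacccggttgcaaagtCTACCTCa
HMGA2 site: ggggcgccaacgttcgatttCTACCTCa
IGF2BP1 site: tgggaaccagcagtgctagtaaCTACCTCa

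LIN28B, HMGA2 and IGF2BP1 each held 4 such matches, and the other 9 of the 10 genes held 0. IGF2BP1, an RNA-binding protein of fetal cells, had 2099, 1123, 1673 and 126 reads in A549 adherent, A549 spheroid, labelled H1993 adherent and H1993 spheroid libraries. Its folds were -0.96 (-1.07 to -0.86) and -3.53 (-3.82 to -3.29), so it was lowest where LIN28B was lowest. HMGA2, a chromatin protein, was higher in both pairs, at 2.32 (2.16 to 2.50) and 2.09 (1.68 to 2.61). IGF2BP2 was at 1.14 and 2.01, and IGF2BP3 at -0.38 and 1.04. Over all 17 measured let-7 targets and processing genes, 2 were higher and 0 lower in the A549 pair, against 12.4% and 10.3% of kept genes. In the H1993 pair 5 were higher and 2 lower, against 17% and 18% of kept genes. The list medians were -0.27 and 0.57. The 149 kept genes with at least 2 matches had medians of -0.04 and 0.06 in the 2 pairs, beside -0.02 and 0.0045 over all 13172 kept genes searched. Mature let-7 levels were not analysed here.

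BMI1 (ENSG00000168283, chromosome 10, 22321211 to 22331484) had lower levels in both spheroid libraries, past 2-fold only in the H1993 pair. It had 790 reads in adherent A549 and 563 in spheroid A549 cells, against 983 in the library labelled H1993 adherent and 424 with H1993 spheroids. These are 40.1 TPM (37.3 to 43.0), 25.3 (23.3 to 27.5), 45.01 (42.2 to 47.9) and 23.2 (21.0 to 25.5). The intervals of the 2 adherent libraries overlap, as do those of the 2 spheroid libraries, and the cultures do not. The log2 fold was -0.55 (-0.71 to -0.39) in the A549 pair and -1.03 (-1.20 to -0.86) in the H1993 pair.

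Of the BMI1 exon reads, 63.3% (59.8 to 66.7) were unique in adherent A549 and 62.3% in spheroid A549 cells, against 64.9% in the library labelled H1993 adherent and 62.5% with H1993 spheroids. COMMD3-BMI1, a readthrough gene on the same strand, had 171, 147, 247 and 63 exon reads, none of them unique. COMMD3, the gene upstream, had 422, 458, 616 and 201, of which between 11.6% and 13.0% were unique. COMMD3 was at 0.05 (-0.14 to 0.25) in the A549 pair and -1.42 (-1.67 to -1.20) in the H1993 pair. Reads of BMI1 and of the readthrough gene were not separated here. The H1993 fold of BMI1 lay close to the 2-fold limit: it was -1.08 with unique reads and -0.95, under 2-fold, as a ratio of the deposited TPM.

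**Figure D4:**
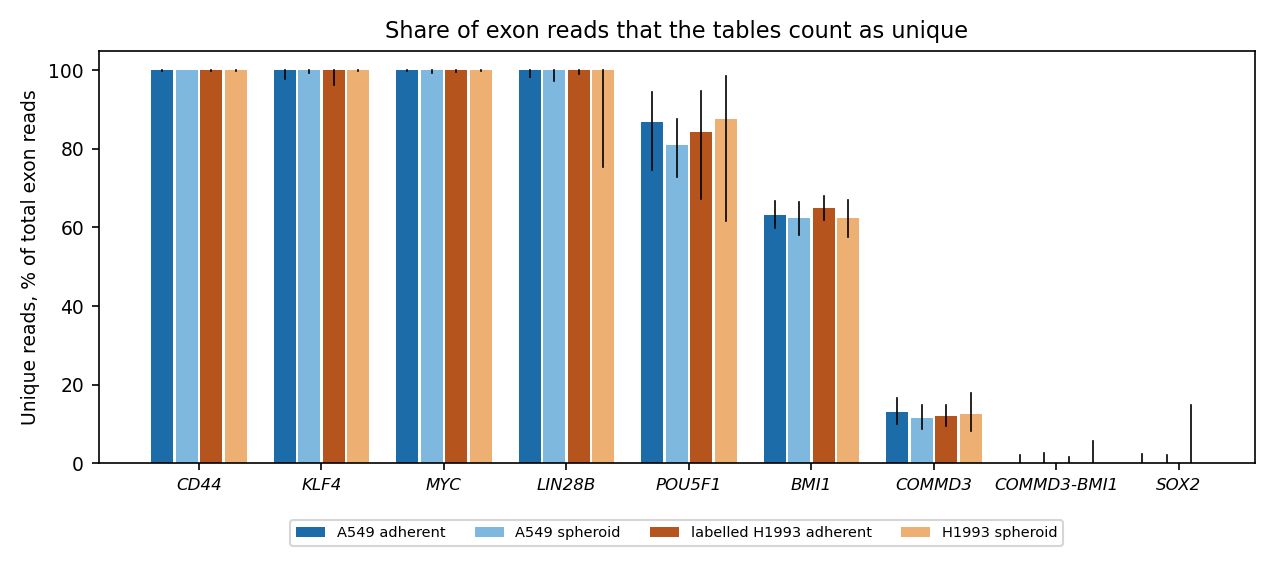
Share of total exon reads that the tables count as unique, in percent, for the genes with at least 10 exon reads in a library, and for COMMD3 and COMMD3-BMI1, with exact 95% binomial intervals. CD44, KLF4, MYC and LIN28B stand at 100%, POU5F1 between 81.0% and 87.5%, BMI1 between 62.3% and 64.9% and SOX2 at 0.

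Of 24 other Polycomb genes, 0 were higher and 2 lower in the A549 pair (median -0.37), where 12.4% and 10.3% of kept genes were. In the H1993 pair 1 was higher and 3 lower (median 0.06), against 17% and 18% of kept genes. EZH2, the methyltransferase of Polycomb complex 2, was at -2.70 in the A549 pair, where division markers were low too, and at -0.31 in the H1993 pair. PHF19 was at -1.57 and -0.06. RNF2, the catalytic partner of BMI1, was at -0.21 and 0.24, and PCGF2, the paralog of BMI1, at -0.51 and -1.26. CBX7 was at 0.84 and 1.73.

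Further markers by which stem-like cancer cells are sorted were also split. Of 16 measured in the A549 pair 3 were higher and 4 lower (median -0.48), beside 12.4% and 10.3% of kept genes. Of 17 in the H1993 pair 5 were higher and 6 lower, beside 17% and 18% of kept genes. The H1993 median was 0.15, or -0.23 over members with at least 100 reads. ALDH1A1, the aldehyde dehydrogenase behind the ALDEFLUOR assay, had 168936, 118358, 131387 and 4059 reads in A549 adherent, A549 spheroid, labelled H1993 adherent and H1993 spheroid libraries. ABCG2, the efflux pump of side population cells, was at -2.97 (-3.23 to -2.76) in the A549 pair and 3.66 (3.50 to 3.84) in the H1993 pair. CD24 was at 0.38 and -1.61, EPCAM at -0.48 and 4.32, and NT5E (CD73) at 2.70 and -0.36. DCLK1, a marker of tuft cells, was higher in both, at 2.38 and 4.15. The markers commonly read together with CD44 and PROM1 thus gave no common direction in either pair.

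**Figure D5:**
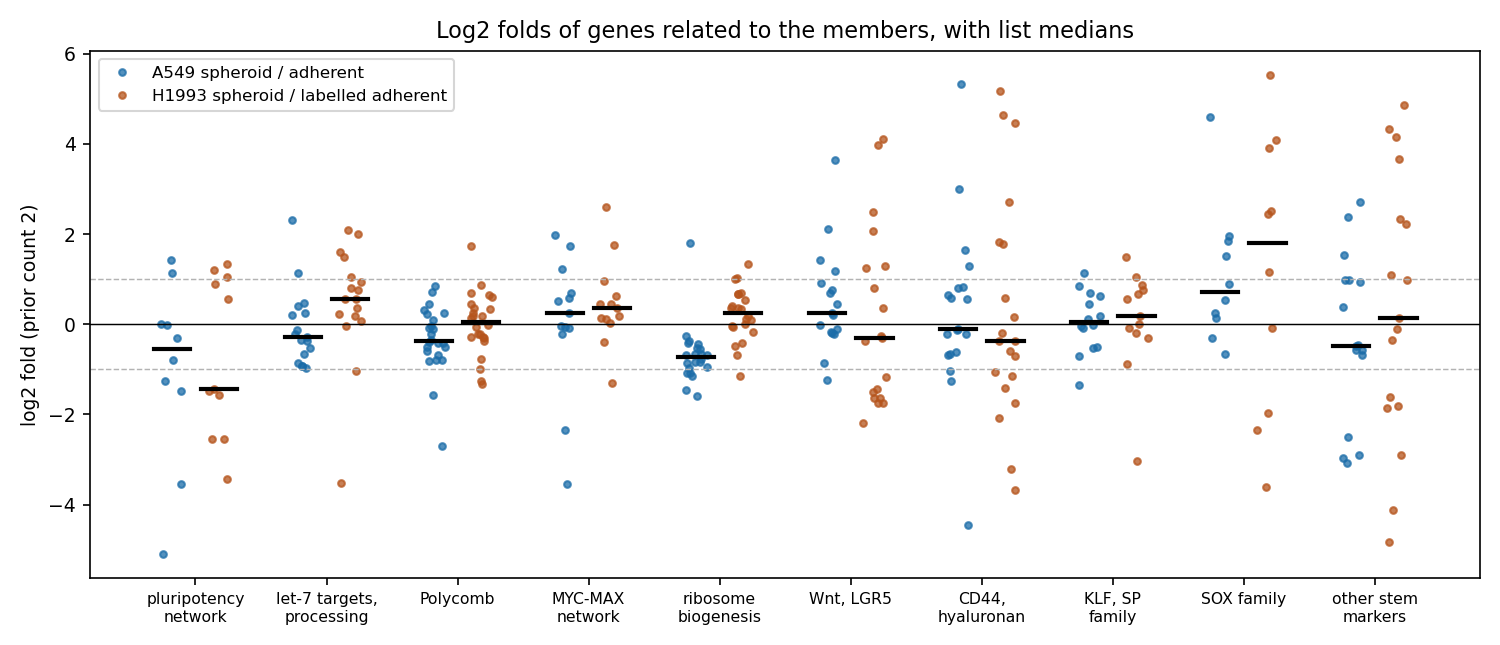
Log2 fold of each measured gene in 10 lists related to the members (points) and the list median (black bar), for the A549 pair in blue and the H1993 pair in orange, with dashed lines at 2-fold. The ribosome biogenesis list, with ODC1 included, lies at a median of -0.73 in A549 and 0.26 in H1993, and the SOX genes at 0.71 and 1.79.

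Comparing lines within a culture, H1993 spheroids had 2 genes higher (KLF4 and MYC) and 4 lower (CD44, SOX2, POU5F1 and LIN28B) than A549 spheroids, against 18% and 19.1% of all 15273 genes. BMI1 was at -0.29 (-0.48 to -0.11), under 2-fold, and CD44 at -2.22 (-2.27 to -2.18). Between the adherent libraries 0 of the 10 genes were higher and 1 was lower, SOX2, against 6.94% and 5.49% of kept genes. CD44 was at -0.41, POU5F1 at -0.82, MYC at -0.80, LIN28B at 0.53 and BMI1 at 0.19 there. Each library enters 2 of the 4 comparisons, so these folds are not independent of those between cultures.

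The culture term over both lines was tested with edgeR's quasi-likelihood test, with line as a further term and 1 residual degree of freedom. PROM1, LGR5 and NANOG did not pass the filter and were not tested. None of the other 7 genes passed an edgeR adjusted p of 0.05. By the same threshold 0% of the 15273 genes were called higher and 0% lower, while 1258 had an unadjusted p under 0.05. KLF4 came nearest, with a log2 fold of 2.89 (approximate SE 0.79), an unadjusted p of 0.0113 and an edgeR adjusted p of 0.450, and it was higher in spheroids in 2 of 2 lines. DESeq2 with the same terms gave KLF4 an adjusted p of 0.00395, within 335 genes called higher and 256 lower. LIN28B was at -2.60 (approximate SE 1.17) with adjusted p of 0.644 by edgeR and 0.0722 by DESeq2. BMI1 was at -0.79 with an edgeR adjusted p of 0.732. These fits use the library labelled H1993 adherent.

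Genes with the most similar profile were sought among 13446 protein-coding genes, by the Euclidean distance of log2 CPM centred over the 4 libraries. With 4 points such likeness is common, and BMI1 had 882 genes within a distance of 0.5. KLF4 had 5, the nearest being PHLDA2 (0.167) and B3GNT3 (0.365). LIN28B had 12, led by CACNA2D1 (0.240) and LMCD1 (0.268). SOX2 had 2, FOXL2 (0.176) and DMKN (0.484). CD44 had 59, led by SEPT4 (0.117) and SLC25A45 (0.155), MYC had 24, led by PDE5A (0.178) and ARHGAP22 (0.258), and POU5F1 had 28, led by PCBP3 (0.209) and IL20RB (0.240).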

How the data were processed

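Each sample was 1 library of total RNA made with a stranded mRNA kit, per the labels' protocols. The genome build was hg38, per the submitters' processing notes. The aligner, counting program, annotation release and use of strand in counting were not given in the sources used here. For every library a table was deposited by the authors, with whole-number counts of total and unique reads over exons, junctions and introns, and with TPM, per the file headers. What makes a read unique is not stated. Libraries were grouped by line and culture from their titles.

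Genes were kept by filterByExpr of edgeR 4.0.16 (R 4.3.3) with line and culture as terms, and scaled by TMM. The prior count of log2 folds was 2, and fold intervals are exact Clopper-Pearson intervals of the 2 counts. Genes with 3 reads or fewer in both libraries got no fold. A list gene was measured where either library of a pair held at least 10 reads. DESeq2 1.42.0 was the other tool. The fit and the 2-fold rule were also run on simulated data without a difference between lines. The simulated dispersion, the spread beyond counting error, was below the common value of 0.233 fitted here. That run therefore cannot tell how they perform on these libraries. The members and the 17 lists were chosen with earlier results of these data known. Named are all members, overlapping genes and copies with at least 10 reads, a fixed set, the 2 nearest profiles of each kept member, and per list up to 4 genes furthest from 0 in each pair with at least 100 reads. Some genes that this rule names are not described. Where several transcripts existed, the APPRIS principal one with the longest 3' UTR was searched. Reads copied by PCR are not independent molecules, so intervals and floors of 3 reads cover counting error only.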

Additional observations from a re-analysis of the deposited data

Results flagged for a closer look

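CD44 and MYC had folds of opposite sign in the 2 lines, with counting intervals that exclude no change in both. For CD44 the log2 fold of the H1993 pair minus that of the A549 pair was -1.81, and for MYC it was 3.13. With 1 library per line and culture the difference was not tested, and the H1993 folds use the library labelled H1993 adherent.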

How the results depend on the processing

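Of 192 alternative values of member folds, 184 stayed within the counting interval of the reported fold, and no called fold changed sign. The other 8 were CD44 under library size scaling and CD44, KLF4 or MYC under ratios of TPM. Scaling by library size alone moved the median of all kept genes in the A549 pair to -0.11. With unique reads, where SOX2 has no read, the count of members lower went from 1 to 0 between the adherent libraries, from 3 to 2 in the H1993 pair and from 4 to 3 between the spheroids. The count higher in the A549 pair went from 3 to 2 with unique reads and with library size scaling, through POU5F1. In the test of culture, DESeq2 called 335 genes higher and 256 lower, and testing every gene with at least 1 read called 127 and 46, against 0 and 0. Library size scaling, unique reads, no line term (no replicate block) and culture alone without the library labelled H1993 adherent, chosen after seeing the data, each called 0 and 0. No paired analysis was possible because the labels give no replicate numbers, and line stood as the block. With 1 library per group, no replicate could be left out. Levels of 5 reads or fewer, those of PROM1, LGR5 and NANOG in every library and of SOX2 in H1993 spheroids, limit any comparison that uses them.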
